A study of Mus musculus with 8 samples.

Results

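Kdm4b, Kdm4a and Kdm4c encode demethylases of lysine 9 of histone H3, and Setdb1 encodes a methyltransferase that places the trimethyl mark on the same residue. The windows set for these 4 genes lie on chromosomes 17, 4 and 3 of mouse build mm9 and span 390 kb together. A peak was counted as a member when its midpoint lay in a window. By this rule 45 of the 88367 deposited peaks were members: 28 in the Kdm4b window, 9 in the Kdm4a window, 2 in the Kdm4c window and 6 in the Setdb1 window. The rule itself uses positions and no peak value, but the windows were chosen with earlier results of these data known.

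The chromatin came from primary mesenchymal stem cells of mouse bone marrow after 4 hours of osteogenic induction. WT cells carried Prx1Cre with wild-type Kdm4b alleles (Kdm4bw/w), and KO cells carried Prx1Cre with floxed Kdm4b alleles (Kdm4bf/f). The Cre transgene was thus common to both genotypes. It is driven by the Prx1 promoter, which is active in limb mesenchyme, so recombination depends on descent from that tissue. The labels of the KDM4B libraries name the genotype as WT or KO only. The labels give neither the age nor the number of mice, nor which part of Kdm4b lies between the loxP sites. Chromatin immunoprecipitation sequencing (ChIP-seq) with antibodies to KDM4B, to trimethylated lysine 9 of H3 (H3K9me3) and to total H3 gave 1 peak list for each genotype. The 2 input samples were not analysed here. The series names KDM4B antibodies of 2 suppliers without assigning them to libraries. Each antibody and genotype was represented by 1 library, so no difference between genotypes could be tested against replicate error, and the intervals given for counts and shares cover counting error only.

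The KDM4 proteins share a JmjN and a JmjC domain, and the JmjC domain uses iron and oxoglutarate to remove methyl groups from H3K9me3, H3K9me2 and H3K36me3. They oppose methyltransferases such as SETDB1, which KAP1 and zinc finger proteins bring to retroelements and to selected genes. H3K9me3 is bound by HP1 proteins and is typical of silent chromatin, although it is also found along the bodies of some genes. The windows were described to see how chromatin at the genes of this enzyme family differed between antibodies and genotypes, and whether the deletion left a mark at Kdm4b.

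The lists differed widely in length. KDM4B had 32017 peaks in WT and 35 in KO, H3K9me3 had 943 in WT and 55306 in KO, and H3 had 38 and 28. A count of 0 in a window therefore says little for the KDM4B KO, H3K9me3 WT and H3 lists. Regions of 100 kb laid end to end over the genome held none of their peaks in 98.4% of cases for H3K9me3 WT and in 99.9% for each of the other 3 lists. Depth was given for the H3 WT library alone, at 40420466 tags after filtering, and is not known for the other 5.

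Members came from 2 of the 6 lists. KDM4B in WT supplied 13 peaks covering 7.04 kb, and H3K9me3 in KO supplied 32 peaks covering 10.3 kb. KDM4B in KO, H3K9me3 in WT and both H3 lists had 0 peaks in each of the 4 windows. Nearly all KO H3K9me3 members, 27 of 32, lay at Kdm4b. Of the 13 KDM4B members, 6 lay in the Setdb1 window and 4 in the Kdm4a window.

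RefSeq promoter sequences were matched for 3 of the 4 genes, Kdm4a, Kdm4c and Setdb1. The 250 bases before the start of Kdm4a and of Setdb1 are shown because Kdm4a was the window where KDM4B and H3K9me3 peaks met, and Setdb1 a window with KDM4B peaks and no H3K9me3 member. Both are in build GRCm38.p6, on the minus strand, and are read 5′ to 3′ with CpG dinucleotides in capitals. They could not be placed on the mm9 peaks, so whether a peak covers them was not tested. The Kdm4a sequence is at chr4:118180044-118180293 and the Setdb1 sequence at chr3:95357203-95357452.
Kdm4a: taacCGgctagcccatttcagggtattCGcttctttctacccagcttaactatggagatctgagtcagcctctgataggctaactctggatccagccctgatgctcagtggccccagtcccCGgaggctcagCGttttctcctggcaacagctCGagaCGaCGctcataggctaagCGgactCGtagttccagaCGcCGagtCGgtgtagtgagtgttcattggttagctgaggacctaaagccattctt
Setdb1: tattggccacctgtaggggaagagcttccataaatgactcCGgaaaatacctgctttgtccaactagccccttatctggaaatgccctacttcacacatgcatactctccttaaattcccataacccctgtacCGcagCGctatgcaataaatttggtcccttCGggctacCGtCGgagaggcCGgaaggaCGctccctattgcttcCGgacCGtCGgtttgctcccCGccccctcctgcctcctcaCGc
These stretches held 12 CpG dinucleotides at Kdm4a and 13 at Setdb1, with a GC content of 53.6% and 54.4%. Of 32851 promoters of the same length, 33.5% and 31.5% had at least as many CpG dinucleotides, and the median was 6. Kdm4c has 2 starts in the table, one with 0 CpG dinucleotides and one with 19. Motifs other than CpG were not searched.

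At Kdm4b, the gene deleted in KO cells, H3K9me3 peaks of KO cells ran from one end of the window to the other. The window on chromosome 17 from 56455001 to 56555000 held 27 of them, covering 8.88 kb or 8.88% of its length, against 0 in WT cells. Of all 25657 regions of 100 kb, 41.1% had H3K9me3 called in KO and not in WT, so the presence of KO peaks alone did not set Kdm4b apart. Their number did: 183 regions, or 0.713%, held 27 or more, and the mean was 2.15 per region. The density of 270 peaks per Mb (95% exact Poisson interval 178 to 393) was 12.5 times that of the whole list (8.26 to 18.2 times) and 8.32 times that of chromosome 17.

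**Figure D1:**
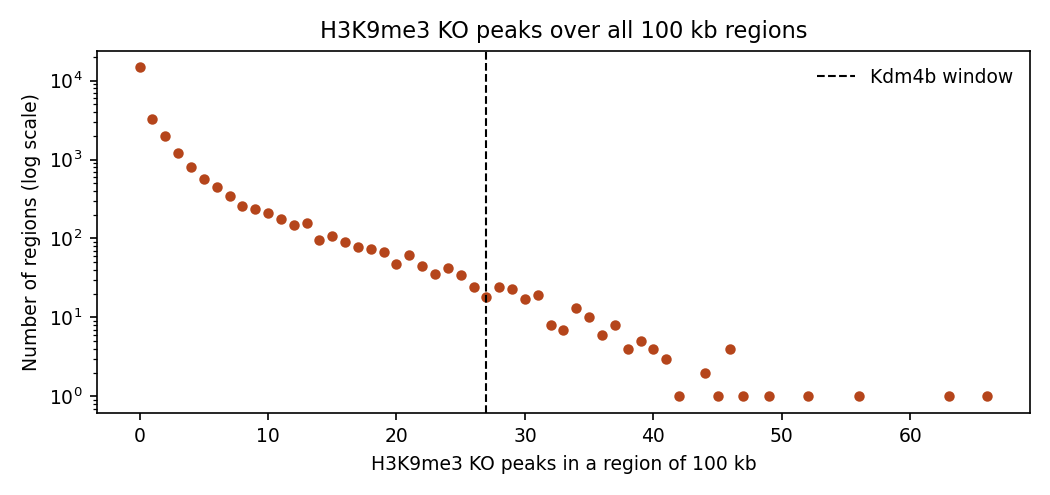
Number of 100 kb regions of the genome (log axis) against the number of H3K9me3 KO peaks they held, with 1 point for each peak number found and a dashed line at the Kdm4b window. Most regions held 0 peaks, the Kdm4b window held 27, and the fullest region held 66.

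The KO peaks at Kdm4b were short. Their widths ran from 199 to 872 bp with a median of 296 bp, against a median of 256 bp in the whole list. The smallest width, 199 bp, was that of 6 of the 27, or 22.2%, against 20.8% of the whole list. None reached 1 kb, a width that 0.533% of the whole list reached. Peaks of at least 300 bp numbered 12 of the 27. The widest, 872 bp, lay from 56541866 to 56542737 and the next, 855 bp, from 56465311 to 56466165. These peaks sit toward opposite ends of the window. The series of 27 was thus a string of separate calls, with a median gap of 2.15 kb. The lists hold no read depth, so whether a continuous domain of weaker signal joined them could not be told.

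KDM4B itself was called once in this window in WT cells, in a peak of 343 bp from 56495515 to 56495857, and not in KO cells. Regions of 100 kb with KDM4B called in WT and not in KO made up 31.8% of the genome's regions, so this pattern was common. The density of 10 KDM4B peaks per Mb (0.253 to 55.7) was 0.802 times that of the whole list. The peak did not overlap H3K9me3 of KO cells, and the nearest such peak lay 6.75 kb away, from 56502606 to 56502947. Distances from the 27 KO H3K9me3 peaks to the nearest KDM4B peak ran from 6.75 to 41.8 kb with a median of 27.2 kb, so 0 of 27 overlapped KDM4B. In the whole KO list 15.7% of H3K9me3 peaks did. With 1 KDM4B peak of 343 bp in the window, few of the 27 could have overlapped KDM4B. The 0 therefore adds little to the count of KDM4B peaks. Regions at least as rich in KO H3K9me3 as Kdm4b usually held more KDM4B. The 183 regions with 27 or more such peaks had a median of 6 KDM4B peaks, and 36 of them, or 19.7%, had 1 or 0. The single KDM4B peak depended on the edges: the window widened by 50 kb on each side held 8.

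The deletion was looked for as a stretch of the window without peaks in KO cells. The window was divided into 10 bins of 10 kb, and each of the 10 bins held at least 1 KO H3K9me3 peak. The lower 5 bins held 8 peaks and the upper 5 held 19. The fullest bin, with 6 peaks, ran from 56505001 to 56515000. The longest stretch without a KO peak was 14.6 kb, from 56488023 to 56502605, and a second of 14.5 kb ran from 56468335 to 56482810. The third longest was 9.8 kb, from 56542738 to 56552541. The longest stretch contained the WT KDM4B peak. Among the 183 regions with at least as many KO peaks, 92, or 50.3%, had a longest empty stretch of at least 14.6 kb, and the median was 14.7 kb. The longest empty stretch at Kdm4b thus lay near the median of regions with 27 or more KO peaks, and shorter stretches were not compared. The lists hold positions and no read depth, so a deleted stretch shorter than these gaps cannot be told apart from a stretch without a call. The absence of H3 peaks bears on nothing here, since 99.9% of regions lacked them in both genotypes.

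The KO H3K9me3 peaks did not stop at the window's edges. In the 100 kb on the lower coordinate side there were 11 KO peaks covering 3.29 kb, and in the 100 kb on the higher side there were 36 covering 11.8 kb. Joined across gaps of at most 14.6 kb, the longest between neighbouring peaks of the window, the peaks formed a run of 218 kb from 56409963 to 56627592. The run held 67 KO H3K9me3 peaks, 0 WT H3K9me3 peaks and 7 KDM4B peaks of WT cells, and it reached 45 kb below and 72.6 kb above the window. Of its 7 KDM4B peaks, 5 overlapped KO H3K9me3, all of them outside the Kdm4b window, beside 22.8% of the whole KDM4B WT list. The run was built by joining KO H3K9me3 peaks, which favours overlap within it. The KDM4B peak next to the window on the lower side lay from 56429436 to 56429925 and shared 222 bp with KO H3K9me3. The next on the higher side, from 56582698 to 56583157, shared 58 bp. In the gene order of GRCm38.p6, the protein-coding neighbours of Kdm4b are Uhrf1 on the lower side and Ptprs on the higher side. Uhrf1 encodes a reader of methylated H3 lysine 9 that helps to maintain DNA methylation, and Ptprs a receptor tyrosine phosphatase. Which of these genes the flanking peaks belong to could not be told in mm9.

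**Figure D2:**
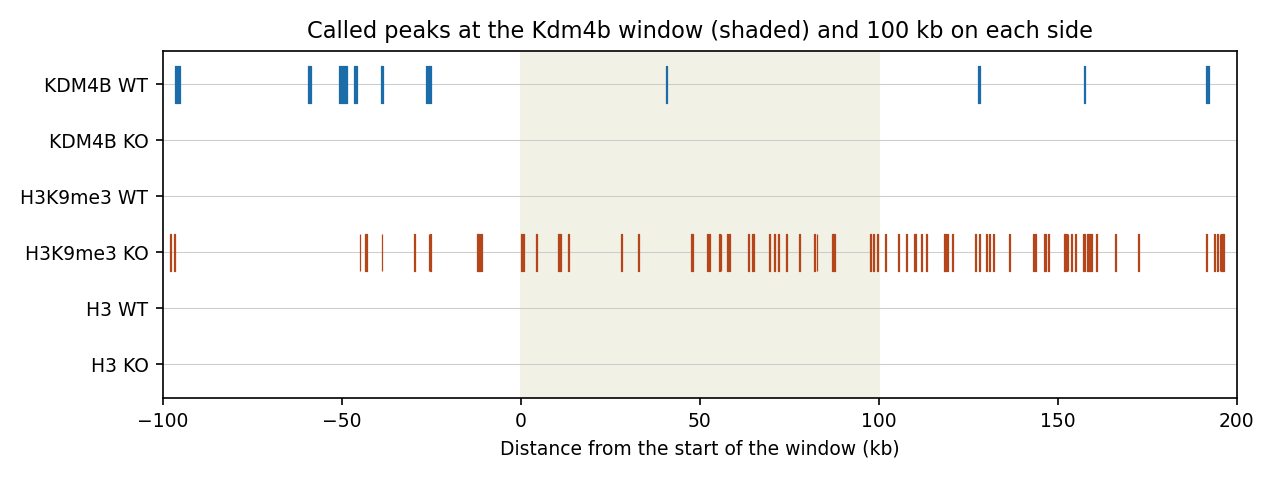
Called peaks of the 6 lists in the Kdm4b window (shaded) and 100 kb on each side, by distance from the window's start in kb. Each bar is a peak drawn with a minimum line width, so short peaks look wider than they are; the window holds 27 H3K9me3 KO peaks, 1 KDM4B WT peak and none of the other lists.

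The 100 kb regions most like Kdm4b in peak number over the 6 lists were on chromosomes 15, 11 and 4. Likeness was the distance between log2(count + 1) values of the 6 lists. The region on chromosome 15 from 76200001 to 76300000 had the same 6 counts, 27 KO H3K9me3 peaks and 1 KDM4B peak, with 8.46 kb of H3K9me3. The regions on chromosome 11 from 119000001 to 119100000 and on chromosome 4 from 117900001 to 118000000 each had 28 and 1, with 8.2 and 9.86 kb. The last of these begins within the 100 kb above the Kdm4a window.

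At Kdm4a both lists were present and met in part. KDM4A is closely related to KDM4B, with the same catalytic domains followed by PHD and Tudor domains. The window on chromosome 4 from 117800001 to 117860000 held 4 KDM4B peaks of WT cells covering 1.95 kb and 5 H3K9me3 peaks of KO cells covering 1.46 kb. Of the 42775 regions of 60 kb, 24.5% had KDM4B called in WT and not in KO, and 33.3% had H3K9me3 called in KO and not in WT. Regions with at least 4 KDM4B peaks were 6.56% of all, and those with at least 5 KO H3K9me3 peaks were 8.63%. The densities were 66.7 KDM4B peaks per Mb (18.2 to 171), or 5.35 times the whole list, and 83.3 H3K9me3 peaks per Mb (27.1 to 194), or 3.87 times.

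The Kdm4a peaks were gathered toward both ends of the window. The widest KDM4B peak, 802 bp from 117807360 to 117808161, shared 330 bp with the widest KO H3K9me3 peak, 381 bp from 117807309 to 117807689. Near the other end, the KDM4B peak from 117851798 to 117852232 shared 90 bp with a KO H3K9me3 peak of 212 bp from 117852143 to 117852354. A second KDM4B peak, from 117852447 to 117852883, began 92 bp beyond that H3K9me3 peak. The fourth, 280 bp from 117816978 to 117817257, lay 4.6 kb from the nearest KO H3K9me3. The other 3 KO peaks measured 199, 350 and 316 bp and lay 1.01, 4.6 and 6.07 kb from KDM4B. Thus 2 of 4 KDM4B peaks overlapped KO H3K9me3, or 50% (95% exact binomial interval 6.76 to 93.2%), beside 22.8% (22.3 to 23.2%) of the whole WT list. The interval holds the whole-list share, so Kdm4a could not be set apart at this number of peaks. None of the 4 overlapped H3K9me3 of WT cells. The 100 kb on the lower and on the higher side of the window held 7 and 32 KO H3K9me3 peaks and 0 KDM4B peaks on either side.

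Kdm4c differed from both in having no H3K9me3 peak of either genotype. KDM4C has the same domain order as KDM4A. The widest of the windows, on chromosome 4 from 73880001 to 74060000, held 2 KDM4B peaks of WT cells. One spanned 989 bp from 73897380 to 73898368 and the other 545 bp from 73951400 to 73951944, and both lay in the lower part of the window. They stood alone in the region: the next KDM4B peaks were 864 kb away on the higher side and 1793 kb away on the lower side. Their density of 11.1 per Mb (1.35 to 40.1) was 0.891 times that of the whole list, and 31.5% of the 14247 regions of 180 kb had at least 2. Of these regions, 41.6% had KDM4B called in WT and not in KO.

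The 0 KO H3K9me3 peaks at Kdm4c allow a density of up to 20.5 per Mb, against 21.5 for the whole list and 31 on chromosome 4. Regions of this length without a KO peak were 48.4% of all, and 49.3% had H3K9me3 called in KO and not in WT, so an empty window was common. The nearest KO peak lay 6.27 kb below the window, from 73873457 to 73873732, and above it the next was 864 kb away. Of the 4494 regions with at least 2 KDM4B peaks, 535, or 11.9%, had no KO H3K9me3, and their median was 5 peaks. The KDM4B peaks at Kdm4c lay 23.6 and 77.7 kb from the nearest KO H3K9me3.

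Setdb1, the gene of the opposing methyltransferase, had KDM4B peaks and no H3K9me3 member. The window on chromosome 3 from 95120001 to 95170000 held 6 KDM4B peaks of WT cells covering 3.21 kb, or 6.41% of its length. The density of 120 per Mb (44 to 261) was 9.62 times that of the whole list (3.53 to 20.9 times). Of the 51334 regions of 50 kb, 21.9% had KDM4B called in WT and not in KO, and 2.62% held at least 6 peaks. Counting peaks within 1 kb as 1 left 3 KDM4B peaks, as many as in the longer Kdm4a window (60 against 50 per Mb). With windows narrowed by 10 kb on each side, 1 was left in 30 kb, or 33.3 per Mb. Kdm4c then had 2 in 160 kb, or 12.5 per Mb. The widest peak, 1598 bp from 95127672 to 95129269, was the only member of 1 kb or more in any window. In the whole lists, 19.9% of KDM4B WT peaks and 0.533% of H3K9me3 KO peaks were that wide. A KDM4B peak of this width was thus not rare.

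The KDM4B peaks in the Setdb1 window were crowded at its lower end. Of the 6, 5 lay between 95121012 and 95130453, with widths of 237, 326, 336, 1598 and 348 bp, and the sixth, 362 bp, lay apart from 95161002 to 95161363. In the gene order of GRCm38.p6 the protein-coding gene next to Setdb1 on the lower side is Cers2, which encodes a ceramide synthase. Which of these 2 genes the crowded peaks belong to could not be told in mm9. KDM4B was denser still below the window, where 100 kb held 21 peaks covering 17.4 kb, and sparser above it, with 3.

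No KO H3K9me3 peak had its midpoint in the Setdb1 window, and 68.7% of regions of that length had none, while 30.7% had H3K9me3 called in KO and not in WT. The empty window depended on where its edge was set. A KDM4B peak of 1987 bp from 95118414 to 95120400 crossed the lower edge, with its midpoint 594 bp outside. A KO H3K9me3 peak of 541 bp from 95119290 to 95119830 lay wholly within that KDM4B peak and ended 170 bp short of the window. On the higher side the nearest KO peak lay 8.02 kb away. Inside the window 0 of 6 KDM4B peaks overlapped KO H3K9me3 (0 to 45.9%), and the nearest to it lay 1.18 kb away. The interval holds the whole-list share of 22.8%, so the 0 does not set Setdb1 apart. Of the 1347 regions of 50 kb with at least 6 KDM4B peaks, 229, or 17%, had no KO H3K9me3 peak.

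**Figure D3:**
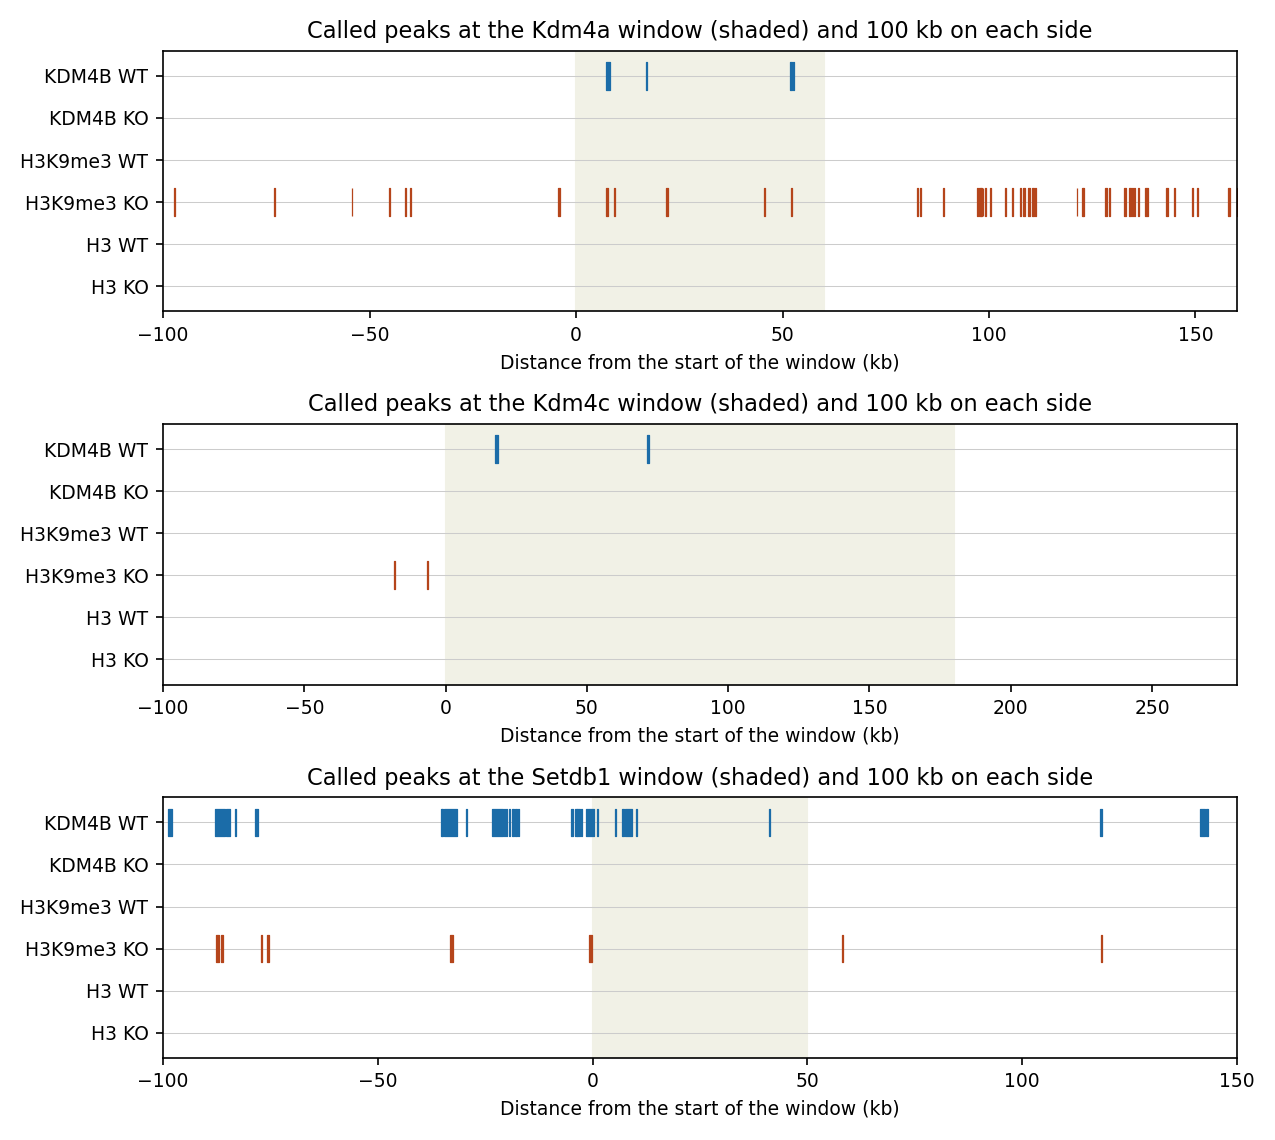
Called peaks of the 6 lists in the Kdm4a, Kdm4c and Setdb1 windows (shaded) and 100 kb on each side, by distance from each window's start in kb, with a minimum line width for each peak. Kdm4a holds 4 KDM4B WT and 5 H3K9me3 KO peaks, Kdm4c 2 and 0, and Setdb1 6 and 0, with 1 KO peak just below the Setdb1 window.

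The order of the 4 windows differed between the lists. For KDM4B in WT cells, peaks per Mb ran from Setdb1 with 120 and Kdm4a with 66.7 to Kdm4c with 11.1 and Kdm4b with 10. All pairs of these intervals overlapped except Kdm4c and Setdb1. Kdm4b, the lowest, had an interval of 0.253 to 55.7 against 44 to 261 at Setdb1. Overlap of intervals does not show that densities are alike, and no pair of windows was tested in either list. The order below Setdb1 depended on the edges. With windows widened by 50 kb on each side, Kdm4b had 40 KDM4B peaks per Mb, Kdm4a 25 and Kdm4c 7.14. For H3K9me3 in KO cells, Kdm4b with 270 was followed by Kdm4a with 83.3, and Kdm4c and Setdb1 had 0. The intervals of Kdm4b and Kdm4a overlapped between 178 and 194, and those of Kdm4c and Setdb1 lay below that of Kdm4b. Over the 4 windows, 2 of 13 KDM4B peaks overlapped KO H3K9me3, or 15.4% (1.92 to 45.4%), an interval that holds the whole-list share of 22.8%. None of the 13 overlapped WT H3K9me3, against 0.0531% of the whole list.

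**Figure D4:**
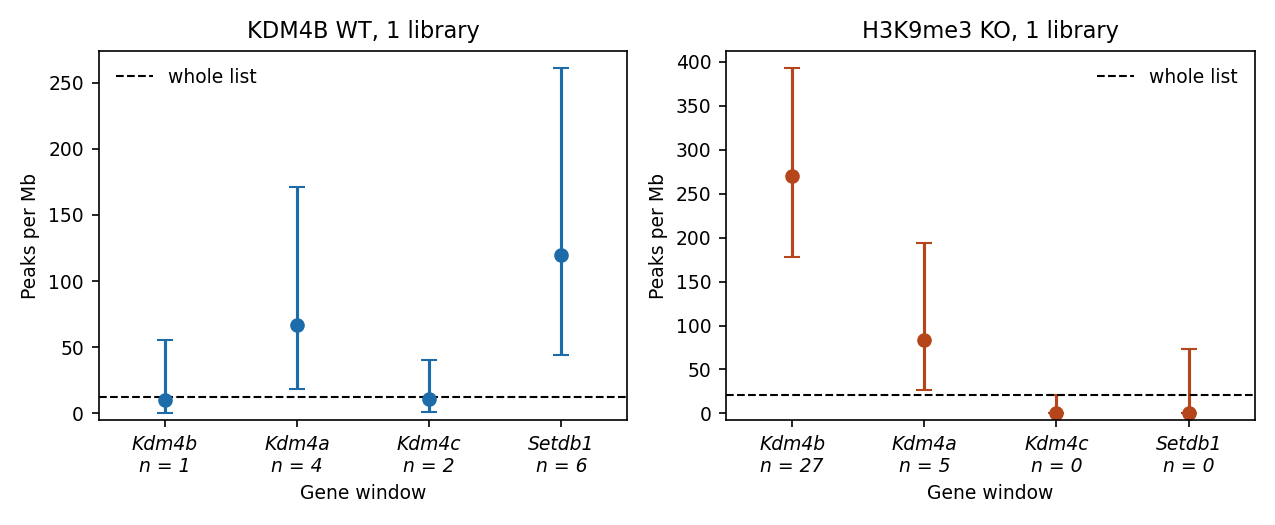
Peaks per Mb in each gene window for KDM4B in WT (left) and H3K9me3 in KO (right), 1 library each; points are the densities, bars the 95% exact Poisson intervals, n the peaks in the window and dashed lines the whole-list density. KDM4B was highest at Setdb1 with 120 per Mb and H3K9me3 at Kdm4b with 270 per Mb.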

How the data were processed

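Peaks were taken as the authors deposited them. Per the submitters' processing notes, Bowtie and SAMtools processed the reads, MACS called the KDM4B peaks and MACS2 those of H3K9me3 and H3, and the builds listed are mm9 and hg19. Not given in the sources used here are their settings and whether the yeast spike-in chromatin entered the calls. Of the 6 deposited files, 5 hold positions alone. The H3 WT table also gives pileup signal, fold enrichment and −log10 p-values and q-values, written by MACS2 2.1.4 with a q-value threshold of 0.05, per the file headers. It had no peak in the windows, so these columns were not used. BED starts were converted to 1-based positions.

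Windows came from a written rule. The members and windows were chosen with earlier results of these data known. Each count was set beside all regions of the same length laid end to end within the span of the lists (2568 Mb), as a description. A region was called for a genotype when it held at least 1 peak there and 0 in the other. Overlap meant at least 1 shared bp. Intervals are 95% exact Poisson (counts) or exact binomial (Clopper-Pearson, shares), and neighbouring peaks are not independent. All 4 genes were to be named, with the widest peaks, the KDM4B peaks at Kdm4b, those overlapping KO H3K9me3 and the 3 regions most like Kdm4b. Other positions, the 100 kb flanks and the joined run were chosen after the peaks were seen. Gene names and promoters came from RefSeq tables of GRCm38.p6, another build than the files', so the planned annotation by gene part, the list of other H3K9 genes and a check of cell type markers were not run, and protein identity was not analysed here. Counting used Python 3.11.15, numpy 2.4.6 and scipy 1.17.1, was tested on simulated data, and gave the same number as bedtools 2.31.1 in 54 of 54 comparisons.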

Additional observations from a re-analysis of the deposited data

How the results depend on the processing

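The alternatives were other window edges, merging of neighbouring peaks, a minimum width in place of a stricter threshold (most lists carry no score) and other overlap rules. Of 60 recomputed KDM4B WT and H3K9me3 KO counts and overlaps, 41 stayed within 1.5 times the reported number, 18 of them at 0, and 19 did not. The counts of the other 4 lists were 0 in all 80 recomputations, which says little for lists so short. Widening each window by 50 kb on both sides gave 8 KDM4B and 57 KO H3K9me3 peaks at Kdm4b, 23 KO H3K9me3 peaks at Kdm4a, 2 at Kdm4c, and 22 KDM4B and 3 KO H3K9me3 peaks at Setdb1. Overlapping KDM4B peaks then numbered 4 at Kdm4b, 2 at Setdb1 and 8 in all. Narrowing by 10 kb left 1 KDM4B and 2 KO H3K9me3 peaks at Kdm4a and 1 KDM4B peak at Setdb1. Merging peaks within 1 kb left 3 KDM4B peaks at Setdb1. It left 18 KO H3K9me3 peaks at Kdm4b, or 180 per Mb, against 27 as reported. That fall is just at the limit of 1.5 times and was counted as within it. With peaks of at least 300 bp, 12 KO H3K9me3 peaks were left at Kdm4b and 3 at Kdm4a, and overlaps numbered 1 at Kdm4a and 1 in all. Requiring 50% of the shorter peak also gave 1 at Kdm4a and 1 in all. Covered lengths were not among the 60 and depended on the settings too. KDM4B at Setdb1 covered 3207 bp as reported, 5194 bp with any overlap of the window and 348 bp with narrowing. KO H3K9me3 at Kdm4b covered 8876 bp as reported, 13417 bp with merging and 5301 bp with peaks of at least 300 bp. The shares of regions moved by at most 1.07 times in 32 recomputations, with regions shifted by 50% of their length or with autosomes only. These include the shares with at least as many KO H3K9me3 peaks as Kdm4c and Setdb1. Both windows held 0, so those shares were 100% by definition and could not move. No share of regions was recomputed with merged peaks or with peaks of at least 300 bp. No paired analysis was possible because each group has 1 library, and leaving out a replicate was not possible for the same reason. A score threshold was not run.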

Other observations

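The 100 kb on the higher coordinate side of Kdm4b and of Kdm4a were both crowded with H3K9me3 peaks of KO cells, with 36 and 32. Of all regions of 100 kb, 0.171% held at least 36 and 0.32% at least 32. KDM4B of WT cells had 3 peaks in the first of these flanks, each of which overlapped KO H3K9me3, and 0 in the second. In the whole KDM4B WT list 22.8% of peaks did so, and a flank picked for many KO H3K9me3 peaks favours overlap. In the gene order of GRCm38.p6 the protein-coding genes on these sides are Ptprs and Ptprf, which encode related receptor tyrosine phosphatases of the LAR type. Whether the peaks lie in these genes could not be told in mm9, and the flanks were singled out after their counts were seen. The 100 kb on the lower side of Setdb1 held 21 KDM4B peaks, a number reached by 0.37% of regions, and 6 KO H3K9me3 peaks.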
